A study of Mus musculus with 6 samples.

Results

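The 10 genes described here are core members of the Notch pathway that are used in blood vessels: the receptors Notch1, Notch2 and Notch4, the ligands Dll1, Dll4, Jag1 and Jag2, the receptor modifier Lfng, and the nuclear genes Rbpj and Nrarp. They were taken by gene symbol from a table of 24421 rows, and 10 of 10 were found. All 10 also reached 1 FPKM in at least 3 libraries, the filter that left 13622 genes for testing. FPKM corrects a gene's sequenced fragments for its length and for the depth of the library.

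The libraries were made from total RNA of retinal endothelial cell preparations of C57BL/6 mouse pups at postnatal day 7. The control group was Anxa3 fl/fl, with both alleles of the annexin A3 gene floxed and no Cre (3 libraries). The mutant group was Anxa3 fl/fl;Tie2-Cre (3 libraries), which carries the same floxed alleles and a Cre recombinase driven by the Tie2 promoter, active in endothelial and blood-lineage cells. Because Cre was present in the mutants alone, an effect of Cre and an effect of Anxa3 loss cannot be told apart. The study asked which genes are affected by loss of Anxa3, with the crossing of retinal arteries and veins in view. The labels do not say whether replicates were separate pups, so the spread that each p-value rests on may be partly technical.

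Notch receptors are cut after they bind a ligand on a neighbouring cell, and the released intracellular part joins the DNA-binding protein RBPJ to switch on target genes. In the growing retinal vessels Dll4 on leading tip cells signals to Notch receptors on the following stalk cells and limits sprouting, while Jag1 can oppose Dll4, and Notch activity also takes part in artery formation. The pathway is not private to vessels: Notch1, Dll1, Rbpj and the target Hes5 are also known from retinal progenitor cells, where Notch holds back neuron formation.

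The preparations were rich in retinal RNA other than endothelial RNA, and this differed between libraries. Each library held between 21386054 and 30904076 recovered reads, and the members had from 427 reads (Lfng, mutant replicate 1) to 14461 reads (Notch1, control replicate 3) per value. Of 20 pan-endothelial markers, all were above 1 FPKM in every library; Cldn5, the highest, ranged from 119 to 287 FPKM. All 10 photoreceptor markers were above 1 FPKM as well, with Sag, the rod arrestin, between 772 and 1265 FPKM. Of the 8 cell type lists, none had a marker at 0 in all 6 libraries. The pan-endothelial level, the mean log2(FPKM + 1) of the 20 markers, was 4.94, 4.81 and 5.92 in the controls, by replicate number, and 4.91, 5.02 and 5.26 in the mutants. Control replicate 3 thus stood apart, with 2.06 times the endothelial level of the mean of the other two controls on a linear scale. Anxa3 itself measured 18.7, 17.7 and 43.4 FPKM in the controls and 9.78, 12.5 and 15.1 FPKM in the mutants, lower in every mutant library than in any control. The difference was -0.93 on the log2 scale (exact permutation test, two-sided, p = 0.1, the smallest that 3 libraries against 3 can give), and -0.53 without control replicate 3.

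Promoter sequences are shown for 5 members: for Lfng and Rbpj because these hold the core letters that RBPJ recognises, and for Notch4, Dll4 and Nrarp because their slopes on the endothelial level of the libraries passed the test. Each line gives the 250 bases before the RefSeq start on GRCm38.p6, 5′ to 3′ on the strand of the gene, with the RBPJ core TGGGAA, or TTCCCA where it lies on the other strand, in capitals. The stretches are chr5:140607091-140607340 for Lfng, chr5:53590096-53590345 for Rbpj, chr17:34564045-34564294 for Notch4, chr2:119325534-119325783 for Dll4 and chr2:25180508-25180757 for Nrarp, each on the plus strand.
Lfng: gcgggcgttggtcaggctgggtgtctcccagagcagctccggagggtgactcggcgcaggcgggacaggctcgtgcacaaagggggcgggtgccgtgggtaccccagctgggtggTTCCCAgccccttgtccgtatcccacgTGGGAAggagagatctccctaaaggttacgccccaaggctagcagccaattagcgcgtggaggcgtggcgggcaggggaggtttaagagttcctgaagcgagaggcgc
Rbpj: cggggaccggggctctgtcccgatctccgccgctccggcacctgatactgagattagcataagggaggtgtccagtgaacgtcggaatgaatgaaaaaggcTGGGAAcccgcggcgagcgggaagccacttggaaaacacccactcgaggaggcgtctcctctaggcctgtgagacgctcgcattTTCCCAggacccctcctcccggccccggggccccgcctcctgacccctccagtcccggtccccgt
Notch4: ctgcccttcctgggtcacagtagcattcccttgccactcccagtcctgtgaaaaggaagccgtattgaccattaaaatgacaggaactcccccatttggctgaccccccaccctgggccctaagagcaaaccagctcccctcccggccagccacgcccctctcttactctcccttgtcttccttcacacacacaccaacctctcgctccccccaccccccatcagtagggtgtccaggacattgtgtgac
Dll4: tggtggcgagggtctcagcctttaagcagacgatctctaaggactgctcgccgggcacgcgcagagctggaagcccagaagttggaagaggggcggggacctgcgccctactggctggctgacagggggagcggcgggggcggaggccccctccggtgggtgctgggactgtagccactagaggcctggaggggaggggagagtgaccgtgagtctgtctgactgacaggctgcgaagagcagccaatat
Nrarp: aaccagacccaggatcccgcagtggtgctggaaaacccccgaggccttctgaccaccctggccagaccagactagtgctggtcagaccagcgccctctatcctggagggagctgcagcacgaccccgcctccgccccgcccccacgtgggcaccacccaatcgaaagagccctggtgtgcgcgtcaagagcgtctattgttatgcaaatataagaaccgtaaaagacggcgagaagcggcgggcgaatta
The Lfng promoter held the core at positions -135 and -108 from the start, and that of Rbpj at -149 and -65. In windows of 300 bases, which add 50 bases after the start, 3 of the 12 windows of the 10 members held the core. They belonged to 2 genes, since the second Rbpj window overlaps the first and repeats a core of it. Among all 32851 RefSeq windows, 25.6% held it, so its share among the members was close to that of promoters at large. The ETS-type core CCGGAA, which reads TTCCGG on the other strand, is a motif of factors that act in endothelial cells among others. It was in 0 of the 12 member windows and in 14.9% of all windows. Both cores contain GGAA but no stretch of letters can be both, and the ETS-type core can overlap its own reverse complement. A match is a description of the letters and shows no binding.

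Among the receptors, Notch1 was the most abundant of the 10 members and Notch2 the least. Notch1, the main receptor of sprouting vessels, lies on chromosome 2 (26457903 to 26516663, minus strand, GRCm38). In order of replicate number, the controls stood at 38.5, 42.8 and 58.9 FPKM and the mutants at 43.1, 43.2 and 43.5 FPKM, an order kept for every gene below. The mutant libraries were nearly equal and lay within the range of the controls, which were spread by control replicate 3. Control libraries averaged 46.7 ± 10.7 FPKM of Notch1 and mutant libraries 43.3 ± 0.175 FPKM (SD, n = 3 per group), which differ by -0.08 ± 0.15 (SE) on the log2 scale. Notch4, a receptor expressed mainly in endothelial cells, lies on chromosome 17 (34564268 to 34588503, plus strand). It measured 10.9, 12.2 and 28.5 FPKM in the controls and 11.9, 13.9 and 16.4 FPKM in the mutants. One control library was thus well above the other five, which spanned a much narrower range, and the groups overlapped. The Notch4 means were 17.2 ± 9.83 FPKM and 14.1 ± 2.24 FPKM, a log2 difference of -0.16 ± 0.32 (SE). Notch2, a receptor of many tissues including vascular smooth muscle, lies on chromosome 3 (98013527 to 98150361, plus strand). It ranged from 4.88 to 6.64 FPKM in controls and from 5.27 to 5.86 FPKM in mutants, and its log2 difference of -0.04 ± 0.13 (SE) was small beside the spread.

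**Figure D1:**
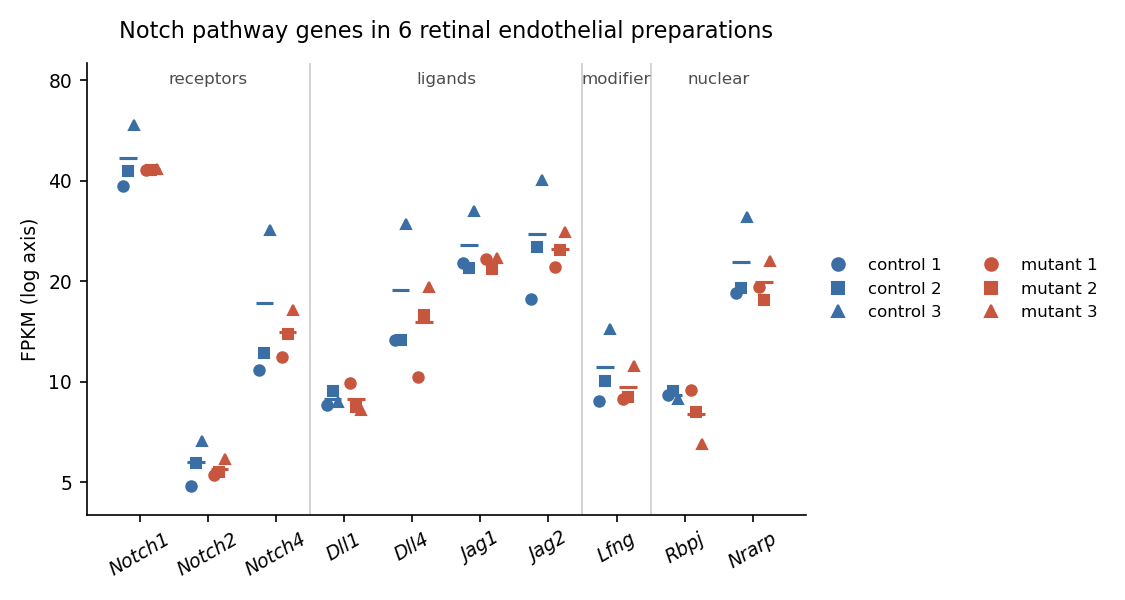
FPKM of each member (log axis) in the 3 control (blue) and 3 mutant (red) libraries, grouped by role, with group means as short lines. Control replicate 3 (blue triangle) is the highest library for 8 of the 10 genes, and for 24.4% of all tested genes; for Dll1 and Rbpj it is not.

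Of the ligands, Dll4 had the widest span of all 10 members, 2.86-fold from the lowest to the highest library, and Dll1 the narrowest, 1.21-fold. Dll4, the ligand of tip cells and arteries, lies on chromosome 2 (119325784 to 119335962, plus strand). It measured 13.4, 13.4 and 29.6 FPKM in the controls and 10.3, 15.9 and 19.2 FPKM in the mutants. Both the highest value (control replicate 3) and the lowest (mutant replicate 1) stood off from the rest, and 2 of the mutant libraries exceeded 2 of the controls. The means were 18.8 ± 9.39 FPKM and 15.2 ± 4.48 FPKM (SD, n = 3 each), a log2 difference of -0.23 ± 0.32 (SE), the largest among the members. Dll1, on chromosome 17 (15367354 to 15376872, minus strand), is a ligand of both arteries and neural progenitors. It measured 8.53, 9.40 and 8.73 FPKM in the controls and 9.96, 8.38 and 8.24 FPKM in the mutants, so that control replicate 3 lay in the middle of its group. The log2 difference of Dll1 was -0.01 ± 0.11 (SE), with a 95% interval from -0.26 to 0.25.

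The Jagged ligands were both more abundant than the Delta ligands. Jag1, which is expressed in endothelial and mural cells, lies on chromosome 2 (137081456 to 137116644, minus strand). It measured 22.8, 21.9 and 32.5 FPKM in the controls and 23.3, 21.8 and 23.6 FPKM in the mutants. Apart from control replicate 3, its libraries lay between 21.8 and 23.6 FPKM. Jag2, a ligand found in endothelium and many epithelia, lies on chromosome 12 (112907819 to 112929776, minus strand). It measured 17.7, 25.4 and 40.1 FPKM in the controls and 22.0, 24.8 and 28.2 FPKM in the mutants. The controls of Jag2 were spread on both sides of the mutants, whose range lay wholly inside theirs, as it did for 5 of the 10 members and 24.2% of all tested genes. The log2 differences were -0.14 ± 0.15 for Jag1 and -0.08 ± 0.26 for Jag2 (SE).

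Lfng, the Lunatic fringe glycosyltransferase that adds a sugar to Notch receptors and favours their response to Delta ligands, was at 8.77, 10.1 and 14.4 FPKM in the controls and 8.88, 9.01 and 11.1 FPKM in the mutants. The gene lies on chromosome 5 (140607320 to 140615545, plus strand). Control replicate 3 and mutant replicate 3, the libraries with the highest endothelial levels, were also the highest for Lfng. The group means of 11.1 ± 2.94 FPKM and 9.67 ± 1.26 FPKM (SD, n = 3 each) differed by -0.16 ± 0.18 (SE) on the log2 scale.

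Of the nuclear genes, Nrarp was highest in control replicate 3 and Rbpj in mutant replicate 1. Nrarp, an ankyrin-repeat protein that Notch induces and that damps Notch signalling in stalk cells, lies on chromosome 2 (25180758 to 25183339, plus strand). It measured 18.5, 19.1 and 31.1 FPKM in the controls and 19.2, 17.5 and 23.0 FPKM in the mutants, again highest in control replicate 3. Rbpj, the DNA-binding partner of the Notch intracellular domain, lies on chromosome 5 (53466152 to 53657362, plus strand). It measured 9.16, 9.37 and 8.90 FPKM in the controls and 9.45, 8.15 and 6.53 FPKM in the mutants. Here the controls were tight and the mutants spread, with mutant replicates 2 and 3 below every control and mutant replicate 1 above every control. The log2 differences were -0.16 ± 0.20 for Nrarp and -0.18 ± 0.14 for Rbpj (SE). Rbpj has 2 processed pseudogenes in the annotation, Rbpj-ps1 and Rbpj-ps3, which are not rows of the table, so its reads could be shared with them and its level is less certain. Notch1, Dll1, Dll4 and Nrarp overlap exons of a gene on the other strand, and whether strand was used in counting is not given in the sources used here. For Dll4 that neighbour, Gm14207, was itself listed at 1.52 to 3.45 FPKM. Notch2 shares exon sequence with Gm42820 on its own strand, which is not a row of the table.

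In order of mean level over the 6 libraries, on the length-corrected FPKM scale, the members ran Notch1 (45.0), Jag2 (26.4), Jag1 (24.3), Nrarp (21.4), Dll4 (17.0), Notch4 (15.6), Lfng (10.4), Dll1 (8.87), Rbpj (8.59) and Notch2 (5.62). The ranges of every 2 neighbours in this order overlapped. Within libraries the order was firmer in places, since Notch1 exceeded Jag2, Jag1 exceeded Nrarp, and Rbpj exceeded Notch2 in 6 of 6 libraries. By contrast Jag2 exceeded Jag1 in 4 of 6 libraries and Dll1 exceeded Rbpj in 4 of 6. The balance of the 2 vascular ligands also varied: the FPKM of Jag1 was 1.70, 1.64 and 1.10 times that of Dll4 in the controls and 2.25, 1.37 and 1.23 times in the mutants. Jag1 was thus above Dll4 in all 6 libraries, least so where the endothelial level was highest. Notch1 stood at 2.06 to 3.54 times Notch4 in controls and 2.66 to 3.63 times in mutants.

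None of the 10 members passed the test between mutant and control libraries. The test was limma on log2(FPKM + 1) over 13622 genes with Benjamini-Hochberg adjustment, in which each member had an adjusted p of 1.0. It called 0 genes in all (0% of those tested at an adjusted p under 0.05), and 165 (1.21%) had an unadjusted p under 0.05, among them 0 members. Fitted with limma voom on the recovered reads, 0 genes were called as well. No member had groups that did not overlap, against 213 genes (1.56%) that lay lower in every mutant than in every control and 380 (2.79%) that lay higher. All 10 means were lower in mutants, from -0.01 for Dll1 to -0.23 for Dll4 with a median of -0.15, whereas 52.5% of all tested genes were lower, with a median of -0.01. Every 95% interval spanned 0, and those of Notch4 (-0.90 to 0.58) and Dll4 (-0.99 to 0.52) were the widest, so that sizeable differences in either direction were not detectable with these libraries.

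The shared direction rested on control replicate 3. Without that library 2 of the 10 members, Dll1 and Rbpj, were lower in mutants, and the median difference was 0.06. Notch4 went from -0.16 to 0.25, Jag2 from -0.08 to 0.22 and Dll4 from -0.23 to 0.13. When each library was scaled to the same pan-endothelial level, 2 of the 10 members were lower, Dll4 and Rbpj, and the median of all genes moved to 0.15, so that the members, with a median of 0.01, then lay below it. The pan-endothelial markers moved likewise between the groups: 20 of 20 had a lower mean in mutants, with a median difference of -0.16. Their lower level in mutants also rested on control replicate 3, which stood at 5.92. Control replicates 1 and 2 stood at 4.94 and 4.81, and the mutants at 4.91, 5.02 and 5.26. In RNA from a bulk preparation, fewer cells of a type and less RNA per cell cannot be told apart.

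**Figure D2:**
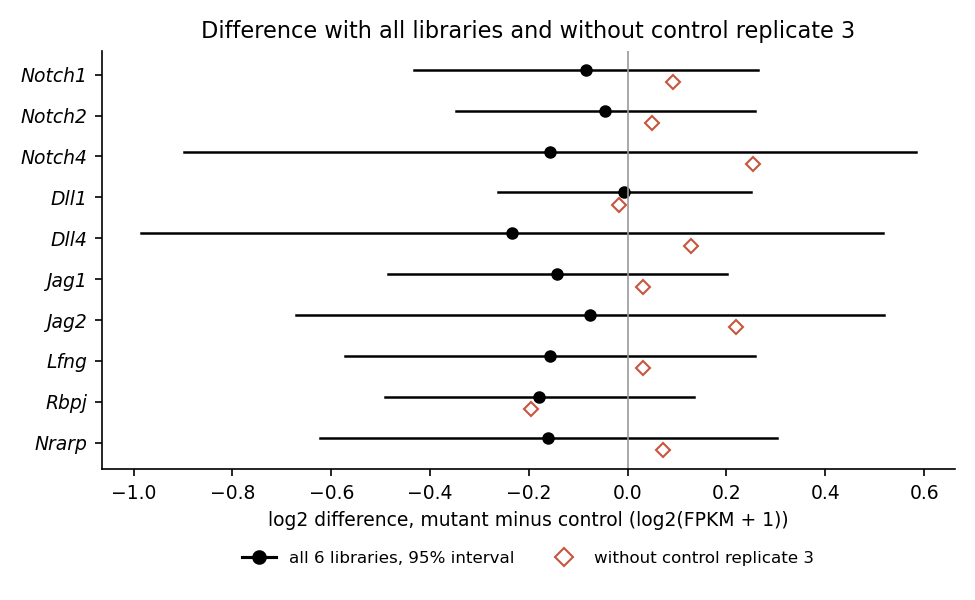
Log2 difference, mutant minus control, of each member with all 6 libraries (black, 95% interval from limma) and without control replicate 3 (open diamonds). The black points lie at or below 0 for all 10 genes, and 8 of the 10 diamonds lie above 0.

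The labels also letter the libraries A to F, without saying what the letters stand for. Control replicates 1 and 2 and mutant replicate 1 carry A to C, and control replicate 3 and mutant replicates 2 and 3 carry D to F. The endothelial level was 4.81 to 4.94 in the first set and 5.02 to 5.92 in the second, so the sets did not overlap. Within A to C, 3 of 10 members were lower in the mutant library than in the mean of the controls (Notch2, Dll4 and Lfng), against 45.5% of all tested genes. Within D to F, 10 of 10 were lower than in the lone control, control replicate 3, against 49.3% of all tested genes. Notch4 differed by 0.04 in the first set and by -0.88 in the second, and Nrarp by 0.03 and -0.61, on the log2 scale. Each of these within-set comparisons has a single library on one side and no test. Leaving out control replicate 3 leaves D to F without a control. The effect of that omission therefore cannot be told apart from a difference between the sets. With the letter sets as a block over all 6 libraries, 9 of 10 members were lower and 0 were called. The median of their differences was then -0.24, with -0.42 for Notch4 and -0.53 for Dll4, and 927 genes had an unadjusted p under 0.05.

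Notch4, Dll4 and Nrarp moved with the endothelial level of the libraries, the other members less clearly or not measurably, and these calls were lost when single control libraries were left out. For each gene a slope on the pan-endothelial level was fitted across the 6 libraries beside a term for genotype. A slope of 1 means that a gene moved in proportion to the markers, and a slope of 0 that it did not move with them. No member is among the 20 markers. Slopes were 1.16 ± 0.14 for Notch4, 1.13 ± 0.19 for Dll4 and 0.68 ± 0.13 for Nrarp (SE), with limma adjusted p of 0.0107, 0.0182 and 0.0269. These 3 of the 10 members were called, against 4.55% of all tested genes with a positive slope. The intervals of Notch4 (0.83 to 1.49) and Dll4 (0.69 to 1.57) included 1, and that of Nrarp (0.38 to 0.97) lay between 0 and 1. The 20 pan-endothelial markers, which make up the level, had slopes from 0.68 to 1.28 themselves. Pericyte and smooth muscle markers that passed the filter had slopes from 0.29 to 1.11, with a median of 0.74.

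An intermediate set did not pass the threshold but leaned the same way. Jag2 had a slope of 0.81 (adjusted p = 0.0661), Lfng 0.55 (0.0732), Jag1 0.47 (0.0617) and Notch1 0.45 (0.10). With the 3 called genes, these made up 7 of 10 members at an unadjusted p under 0.05 with a positive slope, against 12.3% of all genes. Notch2 had a slope of 0.26, with an interval from -0.07 to 0.60. Dll1 (-0.09, interval -0.42 to 0.24) and Rbpj (-0.15, interval -0.55 to 0.25) had negative estimates. Their intervals lay wholly below 1, as did those of Notch1, Notch2, Jag1, Lfng and Nrarp. The median slope of the members was 0.51, and that of all tested genes was -0.02. Whether the slopes of 2 members differ from each other was not tested.

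**Figure D3:**
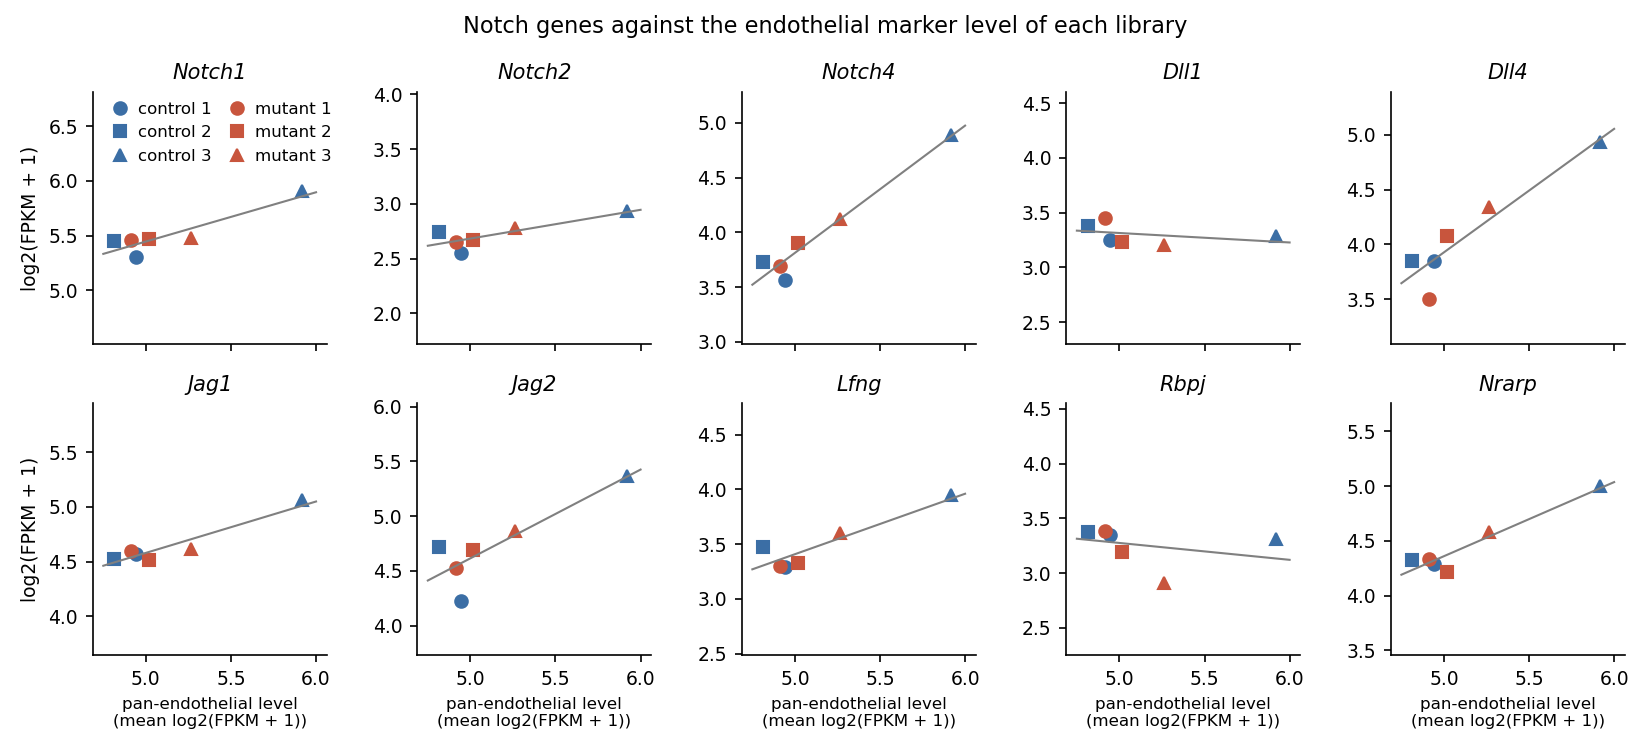
Log2(FPKM + 1) of each member against the pan-endothelial level of the library, with the fitted slope drawn through the mean; every panel spans the same height. Notch4 and Dll4 climb with the level at slopes of 1.16 and 1.13, and the lines of Dll1 and Rbpj have slopes of -0.09 and -0.15.

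The calls depended on single libraries, while the slopes of the called members kept their sign. Without control replicate 3, the library that supplies most of the range, no gene of the 13493 tested was called; the slopes of Notch4, Dll4 and Nrarp were 0.89, 1.90 and 0.72, with adjusted p of 0.604, 0.553 and 0.627, and that of Notch1 turned to -0.10. Without control replicate 2 no gene was called either, although the slopes were larger, with Notch4 at 1.33 (adjusted p = 0.0556), Dll4 at 1.24 (0.0697) and Nrarp at 0.75 (0.0869). Without control replicate 1 only Notch4 was called among the members, with Dll4 at 1.10 (0.0739) and Nrarp at 0.64 (0.109). Without mutant replicate 3 Notch4 and Dll4 were called and Nrarp was not (0.65, adjusted p = 0.0588), and without mutant replicate 1 Jag1 was called as well (0.50, 0.0211). When the genotype term was dropped, 6 members were called, with Jag1, Jag2 and Lfng added.

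Within the mutants, without any control, the order of the endothelial level can be set beside that of the members. That level was 4.91, 5.02 and 5.26 in replicates 1, 2 and 3, and 6 of 10 members ran in that order too, against 22.8% of all tested genes: Notch1, Notch2, Notch4, Dll4, Jag2 and Lfng. For Notch1 the steps were small, from 43.1 to 43.5 FPKM, whereas Dll4 went from 10.3 to 19.2 FPKM. Dll1 and Rbpj ran in the opposite order, and Jag1 and Nrarp in neither. The endothelial list was not alone in this order. The microglia and macrophage list (2.06, 2.72 and 2.97) and the inner retinal neuron list (3.29, 3.49 and 3.55) shared it. The progenitor and neurogenic lists ran in the opposite order, and the remaining lists in neither. Mutant replicate 1 is also the only mutant lettered A to C. What the order of the members reflects was not tested. Within the libraries lettered D to F, 8 of 10 members followed the order of the endothelial level, all but Dll1 and Rbpj, against 18.8% of all tested genes. That count shares mutant replicates 2 and 3 with the one before, and control replicate 3 is its top library.

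The slopes draw most of their range from control replicate 3, so the ratio of that library to the mean of control replicates 1 and 2 restates them on the FPKM scale and adds no support. It was 2.47 for Notch4 and 2.22 for Dll4, beside 2.06 for the endothelial level put back on a linear scale. It was 1.86 for Jag2, 1.66 for Nrarp, 1.53 for Lfng, and 1.45 for both Jag1 and Notch1. Notch2 stood at 1.25, Dll1 at 0.974 and Rbpj at 0.961. Those last 2 values were near the 0.953 of the retinal progenitor list, and the neurogenic and photoreceptor lists stood at 0.760 and 0.739. The inner retinal neuron list stood at 1.06, that of Muller glia and astrocytes at 0.835, and that of microglia and macrophages at 0.786. The photoreceptor level was 7.96 to 8.43 in controls and 8.19 to 8.57 in mutants. Markers of pericytes and smooth muscle stood at 1.69: their level was 3.36 to 4.14 in controls and 3.58 to 3.75 in mutants, with 9 of 10 markers above 1 FPKM in every library. The part of mural or neural cells in the level of any member was not tested.

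**Figure D4:**
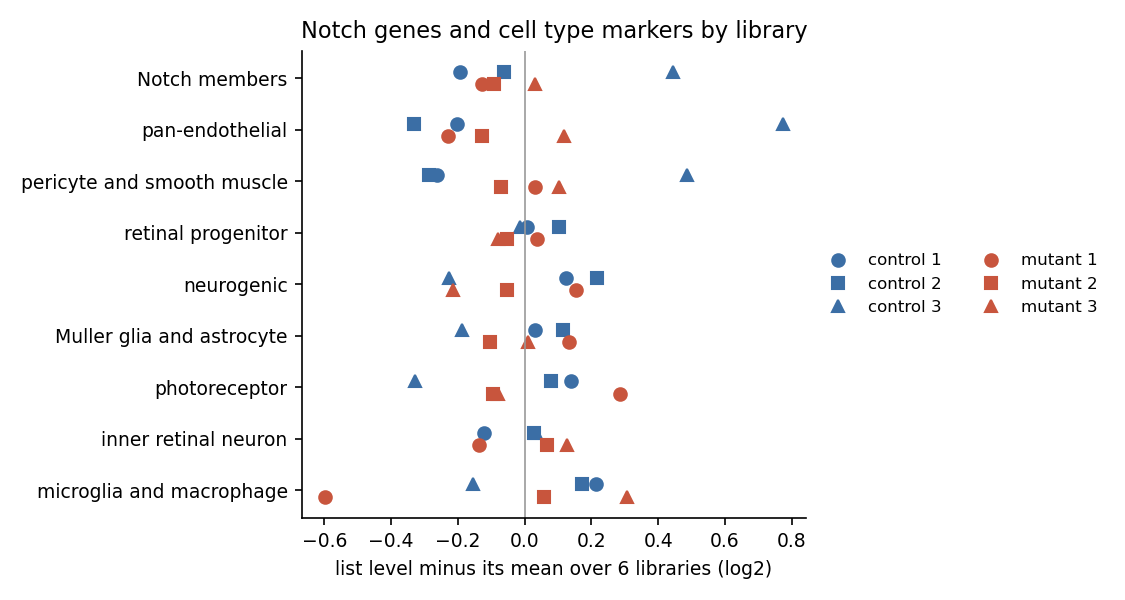
Mean log2(FPKM + 1) of the Notch members and of each cell type marker list in every library, minus the list's own mean over the 6 libraries. Control replicate 3 (blue triangle) is the highest library for the Notch members, the endothelial and the pericyte lists. It is the lowest for the photoreceptor, neurogenic, and Muller glia and astrocyte markers.

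Whether members tracked neural RNA was examined with the same fit on the retinal progenitor level. That level varied little, from 4.02 to 4.20 over the 6 libraries, so the fit had little range to work on. It called 0 members and 0% of the tested genes; at an unadjusted p under 0.05 it had 1 member, Dll4, and 10.8% of the genes. The estimates were positive for Dll1 (1.58 ± 0.996) and Rbpj (2.0 ± 1.2) and negative for the other 8, as far as -6.78 ± 2.21 for Dll4 (SE). Dll1 and Rbpj, whose transcripts are known in retinal progenitors, had negative endothelial and positive progenitor estimates. Neither passed the progenitor test (limma adjusted p = 0.506 and 0.494) or the endothelial one (0.749 and 0.627). By replicate number the progenitor level was 4.11, 4.20 and 4.09 in controls and 4.14, 4.05 and 4.02 in mutants. Within each group it thus ran in the reverse order of the endothelial level. Every member had opposite signs in the 2 fits, so the progenitor estimates add no separate support. Without control replicate 1, Dll4 was called on the progenitor level with a slope of -8.13 (adjusted p = 0.0456). Notch1, also known in progenitors, had an intermediate endothelial slope.

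Genes whose pattern over the 6 libraries was most like that of a member were found by Pearson's r of log2(FPKM + 1), among genes with a mean of at least 5 FPKM. All points share their libraries, and with 6 libraries many genes reach a high r, so the values describe these libraries alone. Nearest to Notch4 were Slc43a3, Sh3tc1 and Nos3, the endothelial nitric oxide synthase (r of 0.999 for each), and 499 tested genes had an r of at least 0.95 with it. Dll4 was nearest to Smox, Alas1 and Tmem204, and Nrarp to Nans and to the basement membrane collagens Col18a1 and Col15a1. For Notch1 they were Stx17, Wasf2 and Nostrin, which binds nitric oxide synthase, and for Lfng the junction protein gene Jup, Igfbp4 and Chst1. Genes close to Jag1 included Cmtm6 and Tnfaip1. Jag2 was nearest to Pitpnm2, Ctdspl and Farp1, and Notch2 to Slc22a23, Mgat4b and Nbl1. Dll1 ran closest to Frat2, Pdxk and the cell cycle factor E2f3, with 47 genes at that r, the fewest of any member. Rbpj ran closest to Rfx7, Wdr26 and Amer1.

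In the rest of the pathway no gene passed the test between genotypes either. Of 45 other Notch pathway genes, all were above 1 FPKM in every library, 34 were lower in mutants, 11 were higher and 0 were called, with a median difference of -0.07. Of all tested genes 52.5% were lower. Without control replicate 3, 24 of the 45 were lower, and 50.6% of all tested genes. All 5 target genes had lower means, with log2 differences of -0.10 for Hes1, -0.04 for Hes5, -0.13 for Hey1, -0.12 for Hey2 and -0.13 for Heyl. Of these, Hes1, Hey1 and Heyl had higher means in mutants once control replicate 3 was left out. The receptor Notch3, a gene of mural cells, differed by -0.02.

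Among the other ligands and ligand-like genes 3 of 5 were lower, with Dll3, a neural Delta gene, at -0.09, Dlk1 at -0.12 and Dlk2 at 0.13. Of the 4 glycosylation genes 3 were lower, including the fringe gene Mfng at -0.08 and the O-fucosyltransferase Pofut1 at -0.04. Genes of ligand endocytosis had 3 of 4 lower, with the ubiquitin ligases Mib1 at -0.09 and Mib2 at 0.10. In the cleavage group 7 of 8 were lower, among them the proteases Furin at -0.16 and Adam10 at -0.17. Among nuclear cofactors 9 of 10 were lower, with the coactivator Maml1 at -0.14. Turnover genes had 3 of 8 lower, with the ubiquitin ligase genes Fbxw7 at 0.08 and Dtx4 at -0.08. None of these had an unadjusted p under 0.05.

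Of the 5 Notch targets, Hes1 was called on the endothelial level, and the estimates of the others lay on both sides of 0. Hes1, a target in many cell types, measured 14.1, 13.9 and 21.1 FPKM in the controls and 13.2, 14.7 and 17.3 FPKM in the mutants, with an endothelial slope of 0.57 (limma adjusted p = 0.0366). Hes5, the target typical of neural progenitors, measured 12.5, 14.8 and 10.5 FPKM in the controls and 11.3, 14.1 and 11.1 FPKM in the mutants, with a slope of -0.34 (adjusted p = 0.254). Hes1 was highest in control replicate 3 and Hes5 was lowest there. Hey2 also had a negative estimate, -0.44, and its value in control replicate 3 was 0.742 times that of the other controls, while Hey1 (0.40) and Heyl (0.57) had positive ones; none of these 3 was called. Of the 45 genes 4 were called, all with positive slopes, against the 4.55% of all tested genes: Egfl7, a secreted endothelial protein, at 1.53 (adjusted p = 0.0107), Notch3 at 0.91 (0.0318), Mfng at 0.61 (0.0394) and Hes1. Egfl7 was named after its value was seen. As with the members, these 4 calls were lost without control replicate 2 and without control replicate 3, where no gene was called. Notch3 and Heyl are known from mural cells, whose markers were also highest in control replicate 3, and which of the cell types their slopes reflect was not tested.

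**Figure D5:**
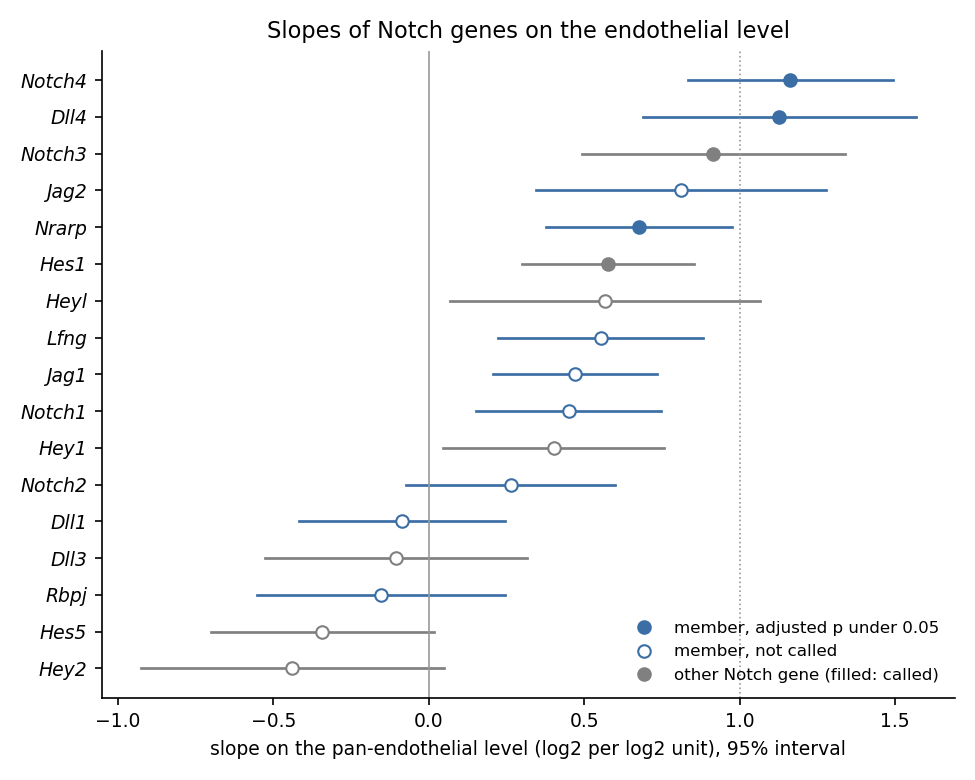
Slope of each member (blue) and of the other receptor, the neural ligand Dll3 and the target genes (grey) on the pan-endothelial level, with 95% intervals; filled points had a limma adjusted p under 0.05 and the dotted line marks proportionality. Notch4 and Dll4 lie at 1.16 and 1.13, and Dll1, Dll3, Rbpj, Hes5 and Hey2 lie below 0.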

How the data were processed

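RNA of 6 retinal preparations was sequenced (3 control, 3 mutant by genotype label). The TruSeq RNA v2 kit was used, per the labels' protocols. Values deposited by the authors are in FPKM, with a column for each library. Per the submitters' processing notes the build was mm10 and the software included Cufflinks 2.2.1, STAR 2.5.0b, DESeq2 and bedtools 2.17.0. What each tool did, the gene annotation and whether strand was used: not given in the sources used here.

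The steps between low values gave back whole reads for 16491 of 16491 rows above 0 in all libraries, within 0.002 reads rising to at most 0.05. The depth of each library was taken first, from the FPKM steps of microRNA rows and the lengths of their hairpins. Reads were then computed from these depths, with the shortest gene length that gave whole numbers. They were used in 1 alternative fit. Replicates of a group differed by more than sampling noise (chi-square divided by its degrees of freedom, 16.8 to 84.6). Counting error is small beside the spread between libraries at these depths.

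The filter kept genes at 1 FPKM or more in 3 or more libraries. These were tested in limma 3.58.1 (R 4.3.3) on log2(FPKM + 1) values, using the trended prior, two-sided, with Benjamini-Hochberg adjustment over all 13622 genes and a threshold of 0.05. Differences are on that scale, which understates changes of low genes. Slopes used the mean of 20 endothelial or 10 progenitor markers as a term beside genotype. Both fits were run on simulated data with independent noise in every gene and library. How they behave with the spread between libraries seen here was not tested. Anxa3 was tested by exact permutation. The members, marker lists and pathway list were chosen with earlier results of these data known, so lists are given as counts and medians.

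Named were all members, Anxa3, Notch3, Dll3, the Hes and Hey genes, the 2 lowest-p genes in each other role of the pathway list, the 3 genes of most like pattern for each member, and the highest and lowest markers of a list where needed. A few genes that this rule names are not reported here. Gene positions came from GENCODE M21 (GRCm38, also called mm10). Promoters came from RefSeq (GRCm38.p6), with entries for 10 of 10 members and 33 of the 45 other pathway genes. Alternatives were another pseudocount (0.1), no filter or 5 FPKM, quantile normalization, scaling to the endothelial level, replicate and letter blocks, library weights, a robust prior, voom on the recovered reads, an endothelial covariate, slopes without the genotype term, and the omission of each library.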

Additional observations from a re-analysis of the deposited data

How the results depend on the processing

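No gene was called between mutant and control libraries in the deposited scale, and 2 and 145 were called after scaling to the endothelial level and with library weights. The weights were 7.0 for mutant replicate 2 and 3.35 for control replicate 2, and from 0.26 to 0.75 for the rest. The weighted fit thus rested mostly on those libraries with the largest weights. The number of members lower in mutants, 10 of 10, was 2 after that scaling, 6 with library weights, and from 2 (without control replicate 3) to 10 when single libraries were left out. Of the 45 other pathway genes 34 were lower, and 2 after scaling. No member was called between the groups in any alternative. The cause of these changes was not tested, except that the scaling by construction lifted the median of all genes to 0.15. Replicate numbers did not pair the libraries (r of deviations 0.249, -0.151 and 0.391 for numbers 1, 2 and 3). Within the letter sets the r of a control and a mutant were 0.249, 0.231, 0.0837 and 0.391, and across the sets they ranged from -0.352 to 0.0249. With a replicate block the differences stayed as they were and 0 genes were called, with 296 against 165 at an unadjusted p under 0.05.

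After scaling to the endothelial level, log2 differences turned positive for Notch1 (0.077), Notch2 (0.12), Notch4 (0.0034), Dll1 (0.15), Jag1 (0.019), Jag2 (0.085), Lfng (0.0034), Nrarp (0.00057), Notch3 (0.14), Dll3 (0.068), Hes1 (0.062), Hes5 (0.12), Hey1 (0.027), Hey2 (0.040), Heyl (0.029), Dlk1 (0.042), Pofut1 (0.12), Mfng (0.085), Mib1 (0.074), Maml1 (0.021) and Dtx4 (0.082). With library weights they were positive for Notch1 (0.014), Notch4 (0.14), Dll4 (0.17), Jag2 (0.025), Notch3 (0.084), Hes1 (0.053) and Pofut1 (0.039). With the endothelial level as a covariate they were positive for Notch4 (0.029), Jag2 (0.054), Notch3 (0.13) and Mfng (0.023). A letter block left 9 of 10 members lower, moved their median difference from -0.15 to -0.24 and gave 927 genes at an unadjusted p under 0.05, with 0 called. It turned Dll1 (0.038), Hey2 (0.025) and Dlk2 (-0.052), and voom on recovered reads turned Dll1 (0.0082) and Notch3 (0.0056).

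When single libraries were left out, differences that changed sign ranged from -0.21 to 0.091 for Notch1, -0.14 to 0.049 for Notch2, -0.40 to 0.25 for Notch4, -0.085 to 0.038 for Dll1, -0.42 to 0.13 for Dll4, -0.24 to 0.032 for Jag1, -0.35 to 0.22 for Jag2, -0.30 to 0.031 for Lfng and -0.29 to 0.072 for Nrarp. In the other pathway genes they ranged from -0.26 to 0.33 for Notch3, -0.17 to 0.011 for Dll3, -0.20 to 0.088 for Hes1, -0.16 to 0.071 for Hes5, -0.24 to 0.026 for Hey1, -0.30 to 0.035 for Hey2, -0.29 to 0.11 for Heyl, -0.29 to 0.13 for Dlk1, -0.074 to 0.38 for Dlk2, -0.080 to 0.0024 for Pofut1 and -0.20 to 0.14 for Mfng. Rbpj stayed negative in all 17 alternatives, from -0.29 to -0.017. Anxa3 stayed negative in all 7, from -1.15 to -0.53.

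The 3 members called on the endothelial level became 6 without the genotype term and between 0 and 4 when single libraries were left out. The slope of Notch1 ranged from -0.10 to 0.55, and those of the other 9 members kept their sign. On the progenitor level 0 to 1 members were called, and slopes that changed sign ranged from -2.17 to 0.54 for Notch1, -1.44 to 0.21 for Notch2 and -4.27 to 0.33 for Jag2.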
